A study of Zea mays with 54 samples.

Results

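MADS-box genes encode transcription factors that share a DNA-binding domain and act in complexes of several family members. In flowering plants they are best known for specifying floral organs, where B, C, D and E class (SEPALLATA-like) members combine, and for setting the identity of inflorescence and floral meristems. A vegetative apex makes leaves and no flowers, so its MADS-box transcripts are read here before any floral organ has formed.

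The genes described are the maize genes named zmm or zag followed by a number. The rule for members uses names and no measured value, and was set with earlier results of these data known. It takes every probe of the 3 array designs whose single annotated gene carries such a symbol or synonym. The rule gave 9 of the 866 genes named by single-gene probes of the series, on 29 of 49280 probes, and 26 of the 29 had values, against 37662 of all probes. There were 15 member probes listed on slides 1 to 6, 7 on slides 7 to 12 and 7 on slides 13 to 18. The 3 without values were 1 probe each of zag1, zag3 and zmm16, all on slides 1 to 6. The genes were zag1 (LOC542244), zag2 (LOC542325), zag3 (LOC542256, also bde1), zmm16 (LOC542019, also sts1), zmm19 (LOC542033, also tunicate1), zmm24 (LOC542038), zmm27 (LOC542506), zmm29 (LOC542020) and zmm31 (LOC542040).

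The study asked which genes differ between the cell layers of the maize shoot apical meristem (SAM). The L1, the single-cell-layer tunica that gives rise to the epidermis, and the L2, here the corpus below it, were cut out by laser microdissection from vegetative apices of 14-day-old seedlings of the inbred line B73. All samples share this line, age and stage, with no mutant and no treatment, and each replicate pooled 5 to 10 SAMs, so a value is a mean over plants. About 1 ng of RNA of each layer was amplified, and both layers were hybridised together, in Cy3 and Cy5, on spotted cDNA slides. Of the 18 slides, 6 belonged to each array design. On the 3 odd slides of a design the L1 carried Cy3, and on the 3 even slides it carried Cy5. Extract numbers in the labels recur across designs, and it is not stated whether equal numbers mark the same RNA, so the designs cannot be taken as separate sets of plants.

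Values are the log ratio of the layers on a slide, written as L1 minus L2, so a positive value means more transcript in the L1. The mean of a slide's 3 readings (named L, M and H) was taken, and a slide is 1 replicate. No source used here gives the base of the logarithm, and folds are therefore given for base 2 and for the natural logarithm. The direction is likely rather than stated. It was read from the epidermal genes ocl1 and ocl4 against kn1. The correlation of slides of opposite dye orientation shows only whether ratios turned with the dye exchange. It cannot tell which layer a positive value means. That correlation was negative on slides 7 to 12 (median r -0.164 between slides, across probes) and 13 to 18 (-0.162) and close to 0 on slides 1 to 6 (0.0265). The log ratio gives no level of either layer, so it does not tell whether a gene was expressed strongly or hardly at all. In such samples fewer cells of a type and less RNA per cell cannot be told apart.

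The layers were described by marker lists, whose direction was largely fixed beforehand, since ocl1, ocl4 and kn1 had been used to read the sign. Of 17 epidermis probes with values, 8 were called higher in the L1, 6 of them of ocl1 and ocl4 and the other 2 of ocl3. Of 20 corpus and meristem probes, 5 were called lower, all of kn1, while no knox3, knox7 or lg3 probe was called. No vascular probe of 23 and no photosynthetic leaf probe of 14 was called. Of all probes of a design, 1.43% to 2.84% were called in either direction. Among 30 leaf primordium probes 8 were called higher in the L1 and none lower, with differences from -0.36 to 2.12, and the part of this list's genes in the MADS-box values was not tested.

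Of the member probes, 2 were called, both higher in the L1: 1 of zmm31 on slides 13 to 18 and 1 of zmm16 on slides 1 to 6. A call is an adjusted p under 0.05 from limma, with a layer and a dye term and Benjamini-Hochberg adjustment over all probes of the design. On slides 1 to 6, 1 of 12 member probes was called, where 2.84% of all probes were. On slides 7 to 12, 0 of 7 were called by limma, where 1.43% of all probes were. On slides 13 to 18, 1 of 7 was called, where 1.57% of all probes were. An unadjusted limma p under 0.05 was found for 6 of 12 member probes on slides 1 to 6 (14.8% of all probes), for 3 of 7 in the second design (13.8%) and for 2 of 7 in the third (12.9%). These probes repeat genes and go both ways. On slides 1 to 6 they were zmm16 (both probes), zag2 and zmm27 above 0, and the last 2 of the 4 zmm31 probes below 0. In the second design they were zmm16 (both probes) above 0 and zmm24 below 0, and in the third zmm16 and zmm31 above 0. The median difference of the members was 0.00 on slides 1 to 6, 0.20 for the second design and 0.00 for the third, and that of all probes was 0.00, -0.02 and 0.00. All 6 slides lay on the same side of 0 for 4 of 12 member probes on slides 1 to 6, where 7.43% of all probes did so. The same held for 2 of 7 on slides 7 to 12 (9.06% of all probes) and for 1 of 7 in the last design (8.96%). Of these, 3 were above 0 and 1 below on slides 1 to 6, 1 above and 1 below on slides 7 to 12, and 1 above in the last design.

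**Figure D1:**
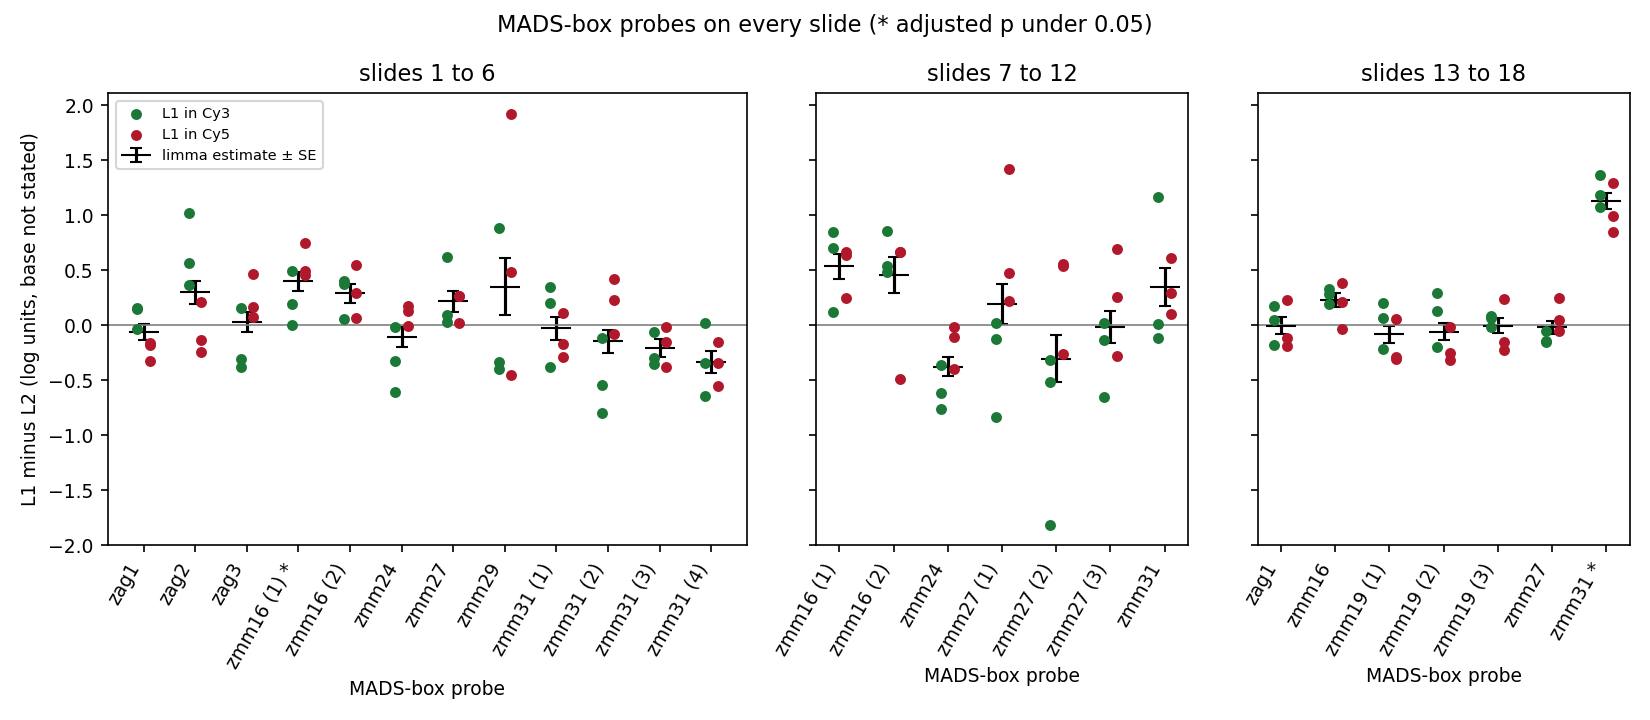
Difference between L1 and L2 (vertical axis, log units of unstated base) for the 26 MADS-box probes with values, 1 panel per array design. Points are slides, coloured by the dye that carried the L1; bars are the limma estimate ± SE over 6 slides. The zmm31 probe on slides 13 to 18 lies between 0.85 and 1.37, away from the other member probes of that design.

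The zmm31 gene encodes a SEPALLATA-like MADS protein, a group known as E class partners in floral organ identity. On slides 13 to 18 its probe gave 1.18 on slide 13, 0.99 on slide 14, 1.07 on slide 15, 1.29 on slide 16, 1.37 on slide 17 and 0.85 on slide 18. All 6 slides were well above 0, and both dye orientations gave it, with a mean of 1.21 where the L1 was in Cy3 and 1.05 where it was in Cy5. The difference was 1.13 ± 0.073 (limma SE, n = 6 slides), which is 2.18-fold if the logarithm has base 2 and 3.08-fold if it is natural, with an adjusted p of 0.000557. It ranked 23 by p-value and 28 by size among the positive differences of the 14270 probes of that design. The 3 readings were close on most slides, but on slide 16 they were 0.81, 1.86 and 1.21.

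On slides 7 to 12 a probe made from the same expressed sequence tag (the partial cDNA that was spotted) gave -0.11 on slide 7, 0.29 on slide 8, 0.01 on slide 9, 0.61 on slide 10, 1.17 on slide 11 and 0.10 on slide 12. Only slide 11 reached the range of slides 13 to 18, and its 3 readings were 1.11, 1.11 and 1.29. The difference was 0.34 ± 0.174 (n = 6 slides), with a limma adjusted p of 0.437. On slides 1 to 6 there were 4 probes from other tags, and none was called. The first gave -0.03 ± 0.104 with 3 of 6 slides above 0 (limma adjusted p 0.939). The second gave -0.15 ± 0.103 with 2 of 6 above 0 (limma adjusted p 0.554), and its slides parted by dye, with a mean of -0.49 where the L1 was in Cy3 and 0.19 where it was in Cy5. The third gave -0.21 ± 0.080 with 0 of 6 above 0 (limma adjusted p 0.251). The fourth gave -0.34 ± 0.098 with 1 of 6 above 0 (limma adjusted p 0.126). Of the 6 zmm31 probes, 1 was therefore called, and all 4 estimates on slides 1 to 6 were below 0.

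Whether the array designs gave different values for a gene was tested with the gene's mean over its probes on each slide, by a two-sided exact permutation test of 6 slides against 6, adjusted over 11 pairs of designs for 5 genes. The zmm31 mean was 1.31 ± 0.109 (SE) higher on slides 13 to 18 than on slides 1 to 6, where it was -0.18 (SD 0.186, n = 6). The slides did not overlap, and the exact p was 0.00216, the smallest this design allows (adjusted p 0.0238). It was 0.78 ± 0.210 higher on slides 13 to 18 than on slides 7 to 12, with overlap through slide 11 (exact p 0.00866, adjusted p 0.0476). That second call lay close to the threshold. The adjusted p of the exact test was above 0.05 when slide 10, 12, 13, 14, 15, 16 or 17 was left out, up to 0.0634, with fewer slides to permute. In those fits the difference was 0.73 to 0.83. Without slide 11 the adjusted p of the exact test was 0.0119 and the difference 0.95. The zmm31 mean was 0.53 higher on slides 7 to 12 than on slides 1 to 6 (exact p 0.0152, adjusted p 0.0557). Slides 1 to 6 carried other zmm31 tags than the later designs, so tag and design cannot be told apart in comparisons with them.

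Of the extract numbers, 5 occur on both later designs, so values can be set side by side by number. With extracts numbered 1 in the labels the zmm31 value was -0.11 on slide 7 and 1.18 on slide 13. With extracts 2 it was 0.29 on slide 8 and 0.99 on slide 14, and with extracts 3 it was 0.01 on slide 9 and 1.07 on slide 15. With extracts 4 it was 0.61 on slide 10 and 1.29 on slide 16, and with extracts 5 it was 0.10 on slide 12 and 1.37 on slide 17. The value was higher on slides 13 to 18 in 5 of 5 pairs, by a mean of 1.00 (SD 0.296, n = 5 pairs). An exact sign-flip test gave p = 0.0625, the smallest that 5 pairs allow, and 0.55 after adjustment. The permutation test above takes such slides as independent. The extract pairs of slides 1 to 6 and 13 to 18 numbered 3, and the value was higher on slides 13 to 18 in all 3, by 1.29 on average.

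The tags that name a gene and were spotted once, with values, on each of the later designs numbered 70. The median absolute difference between the estimates of a tag was 0.08. The zmm31 tag, at 0.78, was second in size. A tag of Lsi6 was ahead of it, with 1.04 on slides 7 to 12 and 0.08 on slides 13 to 18, so its larger value stood on the other design. Lsi6 was named after its value was seen.

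**Figure D2:**
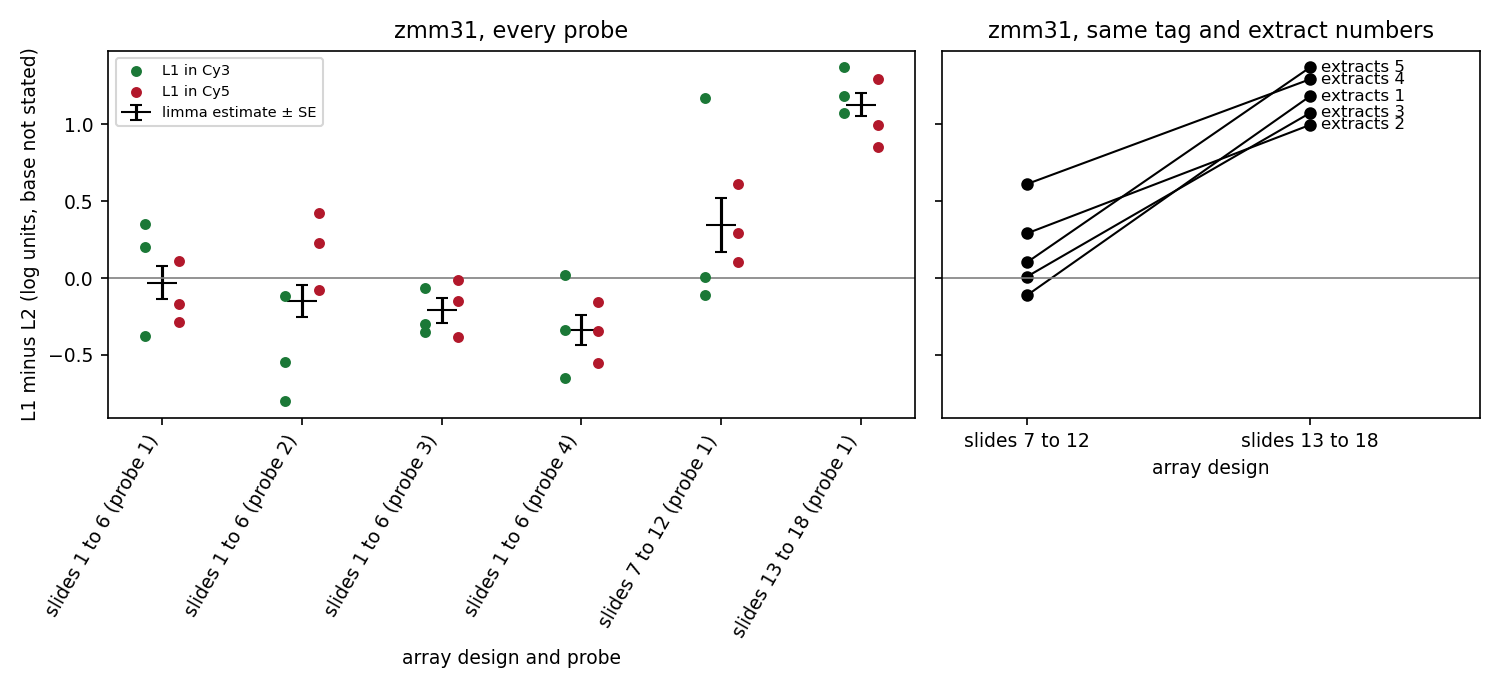
Left, the difference between L1 and L2 (log units of unstated base) of the 6 zmm31 probes, with slides as points coloured by the dye of the L1 and the limma estimate ± SE. Right, the probes of the same tag on slides 7 to 12 and 13 to 18, with lines joining slides of the same extract numbers; all 5 lines rise, to between 0.99 and 1.37.

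The genes closest to zmm31 over slides 13 to 18 were sought among 1094 probes with a single gene, by the root mean square (RMS) difference over the 6 slide values. The closest was ocl1, an HD-ZIP IV gene known from the epidermal layer, with an RMS difference of 0.23 log units and a layer difference of 1.00 ± 0.045. Next came fps (0.42), which makes farnesyl diphosphate, 1 of the 2 probes of yabby15 (0.44), a YABBY gene of leaf primordia, EF1-A (0.51), a translation elongation factor, and pdi2 (0.53), a protein disulfide isomerase. The other yabby15 probe of that design gave a layer difference of 1.94 ± 0.064, against 1.31 ± 0.123 for the near one. This likeness is one of size. Over the 6 slides the Pearson correlation with zmm31 was -0.24 for ocl1, 0.08 for fps, 0.01 for yabby15, 0.14 for EF1-A and -0.76 for pdi2. These points share slides and are a description. The likeness in size to ocl1 was not found in the other designs. The ocl1 probes gave 0.90 and 1.00 in the first design, where the zmm31 estimates ran from -0.34 to -0.03. In the second design the ocl1 probe gave 0.93 ± 0.090 and the zmm31 probe 0.34 ± 0.174.

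The other SEPALLATA-like members, zmm24 and zmm27, gave no call. The zmm24 probe on slides 7 to 12 gave -0.37, -0.40, -0.62, -0.11, -0.76 and -0.01 on slides 7 to 12 in order. All 6 were below 0, slide 12 barely so, and the difference was -0.38 ± 0.085 (limma adjusted p 0.110). On slides 1 to 6 its other probe gave -0.11 ± 0.088 with 2 of 6 slides above 0 (limma adjusted p 0.630). The zmm24 mean on slides 1 to 6 was -0.31 with the L1 in Cy3 and 0.10 with it in Cy5 (dye term, limma adjusted p 0.180). On slides 7 to 12 these means were -0.58 and -0.18 (dye term, limma adjusted p 0.615). The zmm27 probe on slides 1 to 6 was above 0 on 6 of 6 slides, from 0.02 to 0.62, with a difference of 0.22 ± 0.093 (limma adjusted p 0.312). The same tag gave -0.02 ± 0.056 on slides 13 to 18 with 2 of 6 slides above 0. The difference between those designs had an exact p of 0.0411 and an adjusted p of 0.113 (permutation test). Of 152 tags that name a gene and were spotted once, with values, on each of them, 27 (17.8%) differed more. The 3 zmm27 probes on slides 7 to 12 disagreed in sign and scattered widely. They gave 0.20 ± 0.180 (slides from -0.83 to 1.42), -0.30 ± 0.212 (from -1.81 to 0.56) and -0.02 ± 0.144 (from -0.65 to 0.69). The -1.81 was slide 7, whose 3 readings had an SD of 3.10. The means of these probes were -0.31, -0.88 and -0.26 where the L1 was in Cy3. Where it was in Cy5 they were 0.70, 0.28 and 0.22 (dye term, limma adjusted p 0.614 to 0.640).

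The B class genes were zmm16, which corresponds to sterile tassel silky ear1, and zmm29; both are PISTILLATA-like, a group known for petal (in grasses, lodicule) and stamen identity. All 5 zmm16 probes gave estimates above 0, across the 3 designs. The called probe, on slides 1 to 6, gave 0.49, 0.75, 0.19, 0.46, 0.01 and 0.49 on slides 1 to 6 in order. All were above 0, but slide 5 was at 0.01. The estimate was 0.40 ± 0.086 (n = 6 slides, limma adjusted p 0.0365), a fold of 1.32 in base 2 and 1.49 in the natural base. The probe's mean was 0.23 where the L1 was in Cy3 and 0.57 where it was in Cy5 (dye term, limma adjusted p 0.247). Without the dye term in the fit the probe was not called (limma adjusted p 0.108). The call was lost when any 1 slide was left out (limma adjusted p 0.0502 to 0.173), while the estimate stayed between 0.33 and 0.45. With 1 mean over its probes the gene gave 0.34 ± 0.082 (limma adjusted p 0.0612). The second probe of that design gave 0.40, 0.55, 0.06, 0.07, 0.37 and 0.29 on the same slides, and its estimate was 0.29 ± 0.088 (limma adjusted p 0.139). Slide 2 was the highest for both probes, while the lowest was slide 5 for the first and slide 3 for the second.

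On slides 7 to 12 the first zmm16 probe gave 0.70, 0.25, 0.84, 0.64, 0.12 and 0.67 in slide order, and its estimate was 0.54 ± 0.114 with 6 of 6 slides above 0 (limma adjusted p 0.0914). The second gave 0.48, -0.49, 0.54, 0.67, 0.85 and 0.67, and its estimate was 0.45 ± 0.162 (limma adjusted p 0.289). Slide 8 alone was below 0, and there the 3 readings of that probe had an SD of 1.05; without slide 8, the lowest value, the estimate was 0.65 (limma adjusted p 0.0449). Leaving out any other slide gave 0.36 to 0.49, with no call (limma adjusted p 0.326 to 0.551). On slides 13 to 18 the only zmm16 probe gave 0.20, 0.38, 0.28, 0.21, 0.33 and -0.04, and its estimate was 0.23 ± 0.065 (limma adjusted p 0.191). The designs did not differ for zmm16 at the threshold used (exact permutation tests, adjusted p 0.205 to 0.413). The estimates of zmm16 were thus smaller than that of zmm31 on slides 13 to 18 but above 0 on every design.

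**Figure D3:**
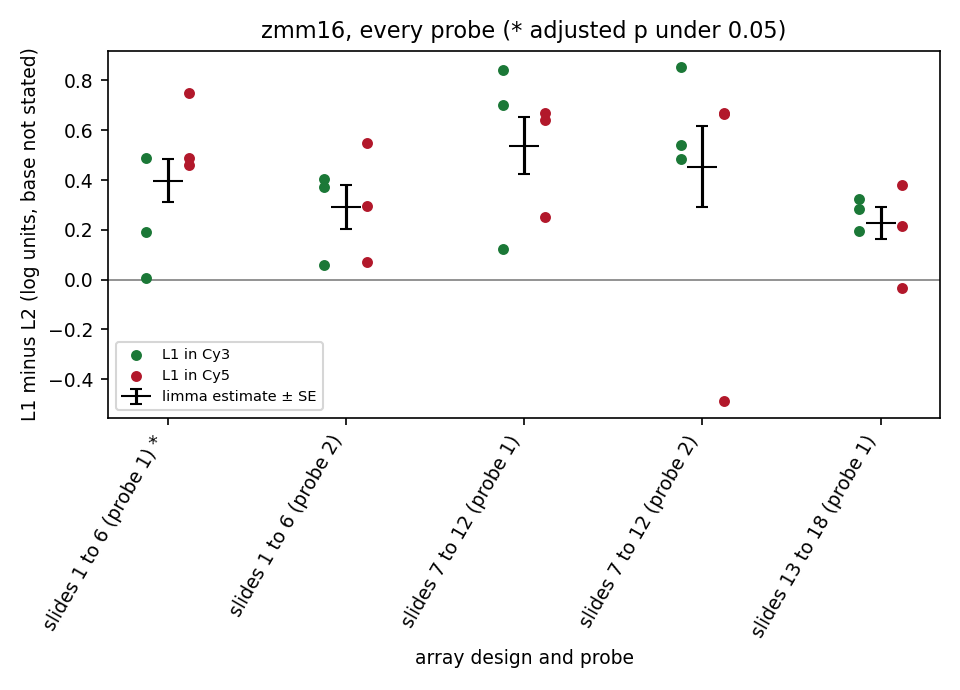
Difference between L1 and L2 (log units of unstated base) of the 5 zmm16 probes; points are slides coloured by the dye of the L1, bars the limma estimate ± SE over 6 slides. All 5 estimates lie above 0, from 0.23 to 0.54, and slide 8 of the second probe on slides 7 to 12 lies at -0.49.

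The other PISTILLATA-like gene, zmm29, had 1 probe, on slides 1 to 6. It gave -0.33, 0.49, 0.88, 1.92, -0.40 and -0.45 in slide order. The slides divided evenly around 0 with slide 4 far above the rest, so the estimate of 0.35 ± 0.263 (limma adjusted p 0.589) was set by that slide and was 0.03 without it.

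The C and D class members gave no call. The zag1 gene is AGAMOUS-like, of the class known for stamens and carpels. Its probes gave -0.06 ± 0.072 on slides 1 to 6 (limma adjusted p 0.750) and 0.00 ± 0.076 on slides 13 to 18 (limma adjusted p 0.987). On slides 1 to 6 the zag1 values parted by dye without overlap. Their mean was 0.09 where the L1 was in Cy3 and -0.22 where it was in Cy5 (dye term, limma adjusted p 0.208). The zag2 gene belongs to the group known from ovules and carpels. Its probe gave 0.56, -0.25, 1.02, -0.13, 0.37 and 0.21 on slides 1 to 6, with an estimate of 0.30 ± 0.101 (limma adjusted p 0.193). The slides parted by dye without overlap, from 0.37 upwards with the L1 in Cy3 and up to 0.21 with the L1 in Cy5 (dye term -0.35, limma adjusted p 0.080).

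The remaining members lie outside these classes. The zag3 gene, bearded-ear1, belongs to the AGL6 group and is known for floral meristem and organ identity in the tassel and ear. Its probe on slides 1 to 6 gave 0.03 ± 0.093, with slides from -0.38 to 0.46 (limma adjusted p 0.922). The zmm19 gene underlies the pod corn mutant Tunicate1 when it is expressed in the inflorescence, and belongs to the SVP group. Its 3 probes on slides 13 to 18 gave -0.08 ± 0.077, -0.06 ± 0.078 and 0.00 ± 0.071 (limma adjusted p 0.715 to 0.992), and no slide of any of them was beyond 0.32 from 0. Slides 13 and 15 were above 0 and slides 14, 16 and 17 below 0 for all 3 probes.

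Other MADS-box genes were described from a list of names. Of 16 probes with values on 5 genes, limma called 0, and 1 had an unadjusted p under 0.05, where 12.9% to 14.8% of all probes of a design did, with a median difference of 0.01 against 0.00 for all probes. That probe was m8, of a SEPALLATA-like gene, on slides 1 to 6 at -0.53 ± 0.129 with 0 of 6 slides above 0 (limma adjusted p 0.0634). The other m8 probes gave -0.03 and -0.37. The one at -0.03, on slides 1 to 6, differed by dye, with a mean of -0.71 where the L1 was in Cy3 and 0.64 where it was in Cy5 (dye term, limma adjusted p 0.00848). The genes of the APETALA1 and FRUITFULL group are known from the transition to flowering. Their estimates were near 0 for zap1 (5 probes, -0.09 to 0.04), m4 (5 probes, -0.06 to 0.07) and m28 (-0.07). The mads15 probes on slides 7 to 12 gave 0.23 ± 0.211 and 0.24 ± 0.166, each with 4 of 6 slides above 0. Neither was called (limma adjusted p 0.668 and 0.564). The m4 probe at 0.07, on slides 1 to 6, had a mean of -0.31 where the L1 was in Cy3 and 0.45 where it was in Cy5 (dye term, limma adjusted p 0.0428). A list of genes named m followed by a number, added after the annotation had been seen, held 13 more probes with values on 5 genes (m1, m7, m20, m21 and m26). Among them 1 probe was called, where 1.43% to 2.84% of all probes of a design were. This m20 probe, on slides 1 to 6, was lower in the L1 at -0.45 ± 0.088 (limma adjusted p 0.0218). It had 0 of 6 slides above 0 and was called in 1 of 6 fits that left a slide out (limma adjusted p 0.0416 to 0.0953). The 4 other m20 probes gave -0.21, -0.26, -0.24 and 0.05, none of them called.

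**Figure D4:**
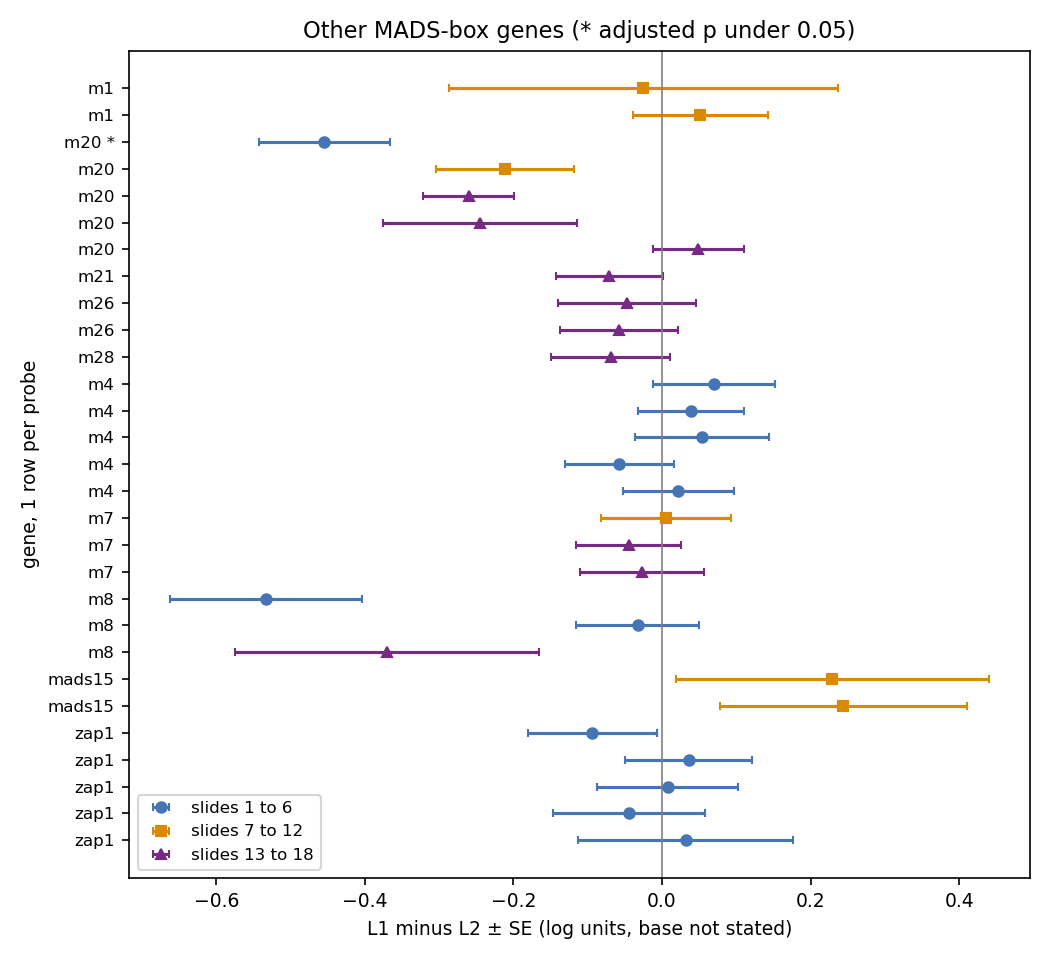
Difference between L1 and L2 (horizontal axis, log units of unstated base, ± limma SE over 6 slides) of the 29 probes of MADS-box genes outside the zmm and zag names; symbols mark the array design. Most lie near 0, and the m20 and m8 probes on slides 1 to 6 at -0.45 and -0.53 lie farthest to the L2 side.

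A list of flowering and inflorescence genes had 10 probes with values on 7 genes, with a median difference of 0.06. Of these, 1 was called, where 1.43% to 2.84% of all probes of a design were. An unadjusted limma p under 0.05 was found for 3, where 12.9% to 14.8% of all probes of a design had it. The called probe was of ct2, the alpha subunit of a heterotrimeric G protein that is known to limit meristem size. On slides 13 to 18 it gave -0.43 ± 0.075 with 0 of 6 slides above 0 (limma adjusted p 0.0451). The call was lost when any 1 slide was left out (limma adjusted p 0.0904 to 0.148), and the other ct2 probe of that design gave 0.03. The list's probes ranged from -0.43 to 1.01. The highest was a dlf1 probe on slides 13 to 18 at 1.01 ± 0.452, not called (limma adjusted p 0.409), with slides from -0.09 to 3.11.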

How the data were processed

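Amplified RNA of L1 and L2 was compared on 18 two-colour slides, 6 for each of 3 array designs. The authors deposited a log ratio of both channels per probe and reading; its base, numerator dye and normalization are stated in no source used here. Each slide's L, M and H values were averaged and turned to L1 minus L2, taking the values as Cy5 over Cy3. limma 3.58.1 (R 4.3.3) fitted layer and dye terms per probe and design (4 residual degrees of freedom). The dye term had a limma adjusted p under 0.05 for 415 probes on slides 1 to 6, 1 on slides 7 to 12 and 0 on slides 13 to 18. The 6 slides of a design limit the precision. Slides 1 and 2, and 5 and 6, share an L2 extract number and were taken as independent. Each design was tested within its own table, and levels set across designs come from separately normalized tables. On simulated data 94%, 92% and 94% of probes changed by 1 unit were recovered on slides 1 to 6, 7 to 12 and 13 to 18, with 7, 6 and 12 false calls. The simulated noise was independent between slides, and no change under 1 unit was simulated. Apart from the called zmm31 probe, member estimates were at most 0.54 in size, so these rates do not apply to them. Figures were drawn with Python 3.11.15.

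Gene names came from the array annotation, updated by gene number through RefSeq (Zm-B73-REFERENCE-NAM-5.0, names only). A single gene was given for 1800, 886 and 1159 probes of the designs, of which 1488, 849 and 1100 matched RefSeq; 23, 0 and 1 probes had several genes and 17377, 13194 and 14840 none. M7 and M8 are named by the array annotation alone. Every member probe was named. Genes like zmm31 were the 5 nearest by RMS difference, and of other lists the called probes were named with ranges for the rest. The members and lists were chosen with earlier results of these data known. Alternatives were single readings, their median, no dye term, scaling, robust eBayes, 1 mean per gene, another threshold and leaving out slides.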

Additional observations from a re-analysis of the deposited data

Results flagged for a closer look

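On slides 7 to 12 the second zmm16 probe gave -0.4867 on slide 8, while the other 5 slides lay between 0.48 and 0.85. Its distance to the nearest slide was 0.724 of the whole range, above the critical value of 0.625 for 6 slides. It was the only such case among 26 member probes, and chance alone would mark about 1 in 20.

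The layer difference of zmm31 was larger on slides 13 to 18 than on slides 1 to 6, by 1.307 (exact permutation test, adjusted p 0.0238, higher on 6 of 6 slides). The probes on slides 1 to 6 came from other tags, so tag and design cannot be told apart there. Against slides 7 to 12, with the same expressed sequence tag on both, it was larger by 0.7812 (exact permutation test, adjusted p 0.0476). That second result was lost under several alternatives given below. Both tests took slides that share extract numbers as independent. The source of these differences was not tested.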

How the results depend on the processing

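The zmm31 call on slides 13 to 18 was made under all 14 alternatives (1.07 to 1.19, limma adjusted p 0.000167 to 0.0131), and that design had 1 member call throughout. The alternative with adjusted p under 0.10 repeats the main fit, so no call could be lost there. On slides 1 to 6 the member calls fell from 1 to 0 with the L or M reading alone, no dye term, 1 mean per gene, or without slides 1 and 5, and were 0 to 0 with each slide left out. On slides 7 to 12 they rose from 0 to 1 with the H reading alone and at an adjusted p under 0.10, and ranged from 0 to 1 with slides left out. Over 376 combinations of member probe and setting, 336 kept direction and call, 10 lost the call (all zmm16), 3 gained one, and 27 uncalled values changed sign.

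The zmm31 difference of slides 13 to 18 from 7 to 12 passed 0.05 no longer with scaled slides (0.7472, adjusted p 0.0773), the M reading alone (0.8803, adjusted p 0.0557) or pairing by extract numbers (1.001, adjusted p 0.55), and ran from 0.6899 to 0.946 with slides left out, a check added after seeing the data. That from slides 1 to 6 was 1.29 when paired (adjusted p 0.55) and 1.258 to 1.362 with slides left out. The paired p-values here are from exact sign-flip tests, and the others from exact permutation tests. The pairs are too few to pass the threshold.

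Calls over all probes also moved. On slides 1 to 6 they were 409, against 261 with the L reading alone, 258 without the dye term, 78 without slides 1 and 5, and 211 to 417 with 1 slide left out. On slides 7 to 12 they were 129, against 82, 90 and 76 with the L, M and H readings, 81 with scaled slides, 232 at 0.10, and 38 to 65 with 1 slide left out. On slides 13 to 18 they were 224, against 79 with the L reading, 413 at 0.10, and 88 to 231 with 1 slide left out. No signal over background was used here, so dim spots could not be told from bright ones.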
